A study of Mus musculus with 12 samples.

Results

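The small nucleolar RNAs (snoRNAs) and the non-coding genes that carry them were followed across 4 groups of mouse embryonic fibroblast (MEF) libraries. Members were the rows of the gene count table whose symbol starts with Snhg, Snora or Snord followed by a digit, or is Gas5. The rule found 126 of the 24421 rows, of which 16 are host genes (Gas5 and the Snhg genes), 36 are H/ACA snoRNAs (Snora) and 74 are C/D snoRNAs (Snord).

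RNA-Seq was performed on Null MEFs, the name the labels give to the comparison line, and on MEFs in which Tfeb and Tfe3 were targeted with CRISPR (DKO). Each line was grown without drug or with 100 µM etoposide for 8 hr, which gave Null control, DKO control, Null etoposide and DKO etoposide groups of 3 libraries each. The labels call the controls untreated, and the methods of the study name DMSO, the vehicle, as their treatment. The study's wild type MEFs are an ATCC line (CRL-2977), and each genotype is represented by 1 line, so genotype and any other difference between the lines cannot be told apart. The MEFs of the study are immortalized with SV40, which its authors say can alter the stability of p53 and confound results. The labels do not state that replicates were separate cultures, so p-values measure the spread between these samples, which may be technical.

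C/D snoRNAs guide ribose methylation and H/ACA snoRNAs guide pseudouridylation of ribosomal and spliceosomal RNA, each within a particle built on a small set of core proteins. In mammals most snoRNAs are released from introns of host genes, many of which encode ribosomal proteins and translation factors, while the Snhg genes and Gas5 are hosts whose spliced RNA has little coding capacity and is commonly degraded by nonsense-mediated decay. Etoposide traps topoisomerase II on broken DNA and activates the DNA damage response.

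Of the 126 members, 123 were matched to GENCODE M21 (GRCm38), 2 to RefSeq only and 1 (Snord116) to neither. H/ACA members spanned 121 to 196 bases (median 132) and C/D members 64 to 238 bases (median 80). A host gene that is itself in the table was found for 106 of the 110 snoRNAs, among 76 distinct hosts, and 16 snoRNAs lay in a host that is also a member. In the annotation 50 of the 110 overlap an exon of the host. Reads from a snoRNA, from the host's unspliced RNA and from a retained intron cannot be told apart in these counts, and whether the counting used strand is not stated, so snoRNA counts stand for the locus. The same holds for Snhg9, which GENCODE lists as an antisense gene.

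The sequences of 6 snoRNAs are given as examples, Snord22, Snord100, Snord12 and Snora64 for their changes described below and Snord47 and Snora61 for their hosts Gas5 and Snhg12. They are from GRCm38, 5′ to 3′, with the C box (TGATGA) and D box (CTGA) of C/D members, or the H box and terminal ACA of H/ACA members, in capitals. Snord22 lies in Snhg1 (chr19:8725866-8725991, plus strand), where an exact C box was not matched, and Snord47 lies in Gas5 (chr1:161038082-161038158, plus strand). Snord100 lies in Rps12 (chr10:23785750-23785823, minus strand) and Snord12 in Zfas1, listed in the table as 1500012F01Rik (chr2:167065276-167065365, plus strand); all 4 overlap an annotated exon of the host. Snora61 lies in Snhg12 (chr4:132310240-132310369, plus strand) and Snora64 in Rps2 (chr17:24720772-24720905, plus strand), and both also overlap an annotated exon of the host.
Snord22: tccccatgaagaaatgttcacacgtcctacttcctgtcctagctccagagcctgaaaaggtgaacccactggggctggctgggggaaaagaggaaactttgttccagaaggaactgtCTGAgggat
Snord47: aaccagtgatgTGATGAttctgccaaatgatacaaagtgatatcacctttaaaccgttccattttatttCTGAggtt
Snord100: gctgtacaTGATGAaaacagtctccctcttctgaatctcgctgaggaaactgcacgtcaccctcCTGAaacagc
Snord12: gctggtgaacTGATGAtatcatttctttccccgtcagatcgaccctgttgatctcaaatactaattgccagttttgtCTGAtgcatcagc
Snora61: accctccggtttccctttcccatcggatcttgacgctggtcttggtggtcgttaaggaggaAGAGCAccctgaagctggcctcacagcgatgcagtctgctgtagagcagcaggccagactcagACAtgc
Snora64: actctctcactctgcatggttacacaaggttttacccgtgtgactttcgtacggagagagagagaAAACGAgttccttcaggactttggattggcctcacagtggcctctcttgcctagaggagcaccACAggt
Over all C/D members with a sequence, 48 of 72 held both boxes in these exact letters, and 33 of 35 H/ACA members held an ACA near the 3′ end.

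The targeted genes were examined in every library before any other result, as CPM, counts scaled to library sizes that were first adjusted by the TMM method. Tfeb, a transcription factor of lysosomal and stress genes, was at 38.9, 39.2 and 42.1 CPM in Null control and 4.6, 6.09 and 4.68 CPM in DKO control libraries. After etoposide it was at 11.4, 10.2 and 10.4 CPM in Null and 1.92, 1.61 and 2.20 CPM in DKO libraries. Tfeb RNA was thus lower in every DKO library than in any Null library under the same treatment. Tfe3, its close relative, was at 115, 109.9 and 114 CPM in Null control and 94.1, 93.1 and 91.0 CPM in DKO control, and at 68.5, 69.6 and 68.1 CPM in Null etoposide and 70.7, 71.2 and 63.4 CPM in DKO etoposide. Tfe3 RNA was slightly lower in DKO without drug, and the groups overlapped after drug, where the log2 difference of -0.01 turned to 0.03 without replicate 3 of DKO etoposide. RNA counts do not measure whether the protein is made.

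Depth was between 45577023 counts on genes (DKO etoposide replicate 1) and 104120871 (DKO control replicate 2), and CPM of weakly counted members are least precise in the shallowest library. Of the 126 members, 106 passed the filter on low counts (15 hosts, 31 H/ACA and 60 C/D snoRNAs) and were tested among 15220 genes. The 11 fibroblast markers (Vim highest on the mean over all libraries, Fn1 in DKO etoposide) summed to 7092, 7085 and 7191 CPM in Null control, 11530, 12120 and 11590 CPM in DKO control, 4053, 3964 and 3958 CPM in Null etoposide and 5243, 5337 and 5013 CPM in DKO etoposide. Thy1, which marks many fibroblasts, was at 4.21 ± 0.251 CPM (SD, n = 3) in Null control and 0.0365 ± 0.0220 CPM in DKO control, and was the 1 fibroblast marker called lower in untreated DKO MEFs, where the other 10 were called higher. The 4 epithelial markers (Cdh1 highest on the mean over all libraries) summed to 0.436 to 2.86 CPM per library and the 3 endothelial markers (Tek highest on that mean) to 0.0435 to 2.71 CPM. The 4 leukocyte markers summed to 1.57 to 13.6 CPM and were highest in Null etoposide libraries (12.6 to 13.6 CPM), with Cd68 highest, Ptprc at or below 0.540 CPM in each library and Cd3e at 0 in 11 of 12 libraries. Marker sums moved with both treatment and genotype, and their part in the results was not tested. In these bulk samples fewer cells with a transcript and less of it per cell cannot be told apart.

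Summed over all members of a class, host genes were lowest in DKO control libraries, and both classes of snoRNA were lower in DKO than in Null libraries. The 16 host genes together reached 413.9, 392 and 427 CPM in Null control and 240.2, 245 and 235 CPM in DKO control. After etoposide they summed to 359, 361 and 335 CPM in Null and 293, 286 and 297 CPM in DKO. No pair of groups overlapped on this scale, but with library size alone the Null totals with drug (363 to 392 CPM) overlapped those without it (378 to 413 CPM), while the DKO totals stayed higher with drug (305 to 317 against 209.4 to 216 CPM). The H/ACA snoRNAs summed to 473, 494 and 510.0 CPM in Null control, 289, 290.2 and 229 CPM in DKO control, 522, 522 and 564 CPM in Null etoposide and 278, 362 and 375 CPM in DKO etoposide. Null libraries were above all DKO libraries, and the DKO groups with and without drug overlapped through DKO etoposide replicate 1, the shallowest library; with library size alone they did not (205 to 257 against 302 to 400.1 CPM). The C/D snoRNAs summed to 271, 310.3 and 324 CPM in Null control, 179, 187 and 163 CPM in DKO control, 325, 342 and 297 CPM in Null etoposide and 179, 209.7 and 211 CPM in DKO etoposide. Within each line the C/D totals overlapped between treatments, and between lines they did not. With library size alone the treatments did not overlap either, at 262 to 313 CPM without drug and 321 to 372 CPM with it in Null and 145 to 165 CPM and 194 to 225 CPM in DKO. The Null part of this rests on Snord17: without it the totals on that scale were 188 to 234.5 CPM without drug and 206 to 232 CPM with it, which overlapped, while those of DKO, at 108 to 117 CPM and 142 to 154 CPM, did not. The H/ACA total rests largely on Snora74a: without it the sums were 254 to 305 CPM in Null control and 242 to 287 CPM in Null etoposide, which overlapped, and 146 to 180.3 CPM in DKO control and 182 to 239 CPM in DKO etoposide, which did not. Read pairs that fell in no listed gene, which include unspliced RNA, made up 22.5 to 24.2% of all counts, those not aligned uniquely included, in Null control, 20.2 to 21.1% in DKO control, 25.1 to 27.3% in Null etoposide and 21.2 to 22.3% in DKO etoposide. This share moved with the snoRNA totals, and its part in them was not tested.

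**Figure D1:**
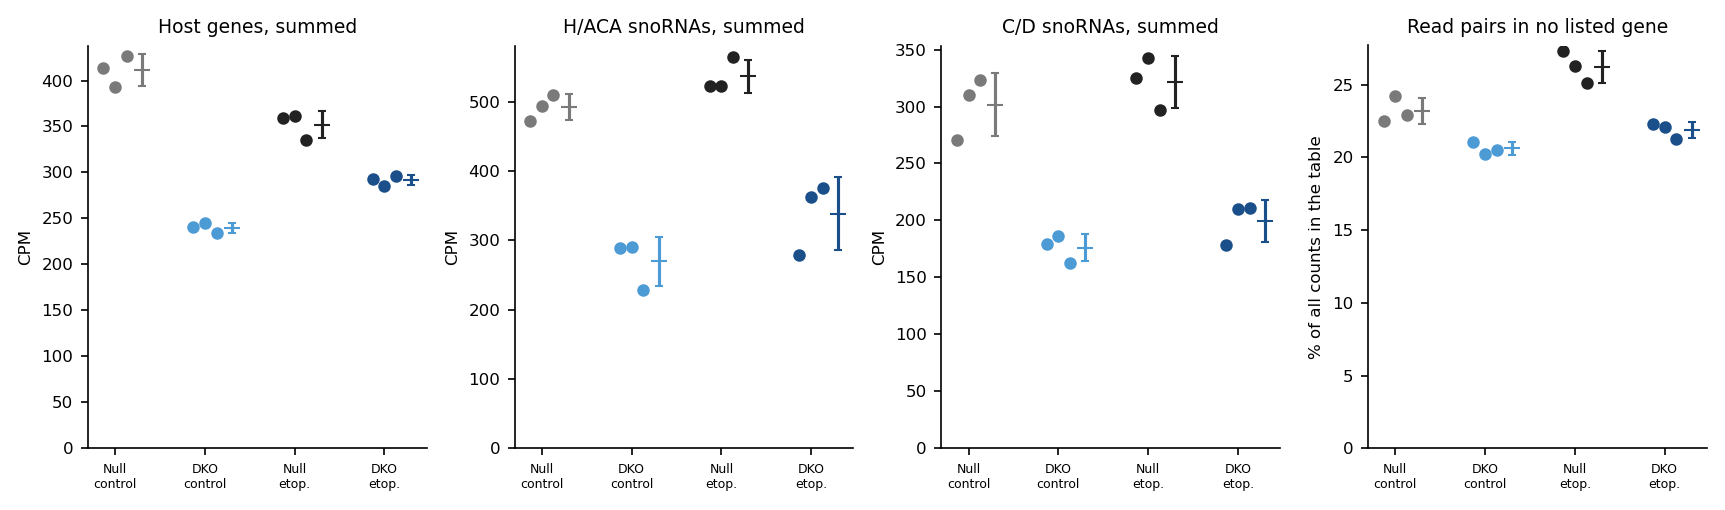
Summed CPM of host genes, H/ACA snoRNAs and C/D snoRNAs, and the percent of all counts in no listed gene, for each library (points) by group, with the mean and SD beside them. The 3 DKO control libraries lie lowest in the host panel at 235 to 245 CPM, and Null libraries lie above DKO libraries in both snoRNA panels.

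The first comparison asked how the lines differed without drug. In untreated cells, most host genes and most snoRNAs with a mean of at least 1 CPM were lower in DKO than in Null MEFs. Of the 106 tested members 65 were lower in DKO MEFs, while 33.4% of all genes tested were called lower, and 2 were higher (33.3% of all genes). The members' median log2 difference was -0.65 beside -0.02 over all genes. By class, 14 of 15 hosts, 20 of 31 H/ACA and 31 of 60 C/D snoRNAs were lower, with medians of -0.69, -0.57 and -0.74. The calls sat in the better counted snoRNAs: at a mean of at least 1 CPM 20 of 24 H/ACA and 21 of 25 C/D snoRNAs were lower (medians -0.61 and -0.805), and under 1 CPM 0 of 7 and 10 of 35 were (medians -0.31 and -0.56).

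Gas5, a host named for its rise in growth-arrested cells, was at 105, 96 and 108 CPM in Null control and 67.4, 63.8 and 60.6 CPM in DKO control libraries. The groups did not overlap, and the log2 difference was -0.69 ± 0.05 (SE), with an adjusted p of 2.01e-09 (quasi-likelihood test of edgeR, with p adjusted by the method of Benjamini and Hochberg, BH). Snhg1, which hosts Snord22 and a cluster of other C/D snoRNAs, stood at 79.1, 75.8 and 76.2 CPM in Null and 35.2, 35.3 and 32.4 CPM in DKO control. It was lower in every DKO library, by a log2 difference of -1.17 ± 0.04 (edgeR, BH adjusted p = 4.05e-14). Snhg8, host of Snora24, gave 45.0, 41.5 and 46.4 CPM in Null control and 18.1, 16.9 and 16.3 CPM in DKO control. Its difference of -1.37 ± 0.06 was the most negative among hosts with a mean of at least 5 CPM (edgeR, BH adjusted p = 1.44e-12). Snhg20 gave 8.50, 8.33 and 9.24 CPM in Null and 3.58, 3.61 and 3.25 CPM in DKO control, with no overlap and a difference of -1.31 ± 0.10 (edgeR, BH adjusted p = 1.79e-09). Snhg17 differed less, at 54.7, 49.5 and 55.4 CPM against 38.5, 41.0 and 39.4 CPM, again without overlap (log2 -0.42 ± 0.05; edgeR, BH adjusted p = 1.24e-06).

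The remaining hosts ranged from -2.56 for Snhg14 to -0.24 for Snhg6 among those called lower. Snhg14 is the long host of the imprinted Snord116 region and was at or below 0.432 CPM in each control library. Both members called higher were singled out after their values were seen. Snhg18 was at 0.725, 0.707 and 0.896 CPM in Null and 2.02, 2.01 and 2.60 CPM in DKO control, a log2 difference of 1.5 ± 0.21 (edgeR, BH adjusted p = 7.73e-06). Snord14a was at 0.246, 0.200 and 0.170 CPM and 0.361, 0.543 and 0.386 CPM, a difference of 1.09 ± 0.35 (edgeR, BH adjusted p = 0.0115). Neither gene's groups overlapped. Leaving out DKO control replicate 2, or requiring a mean of 1 CPM, left 1 member higher.

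**Figure D2:**
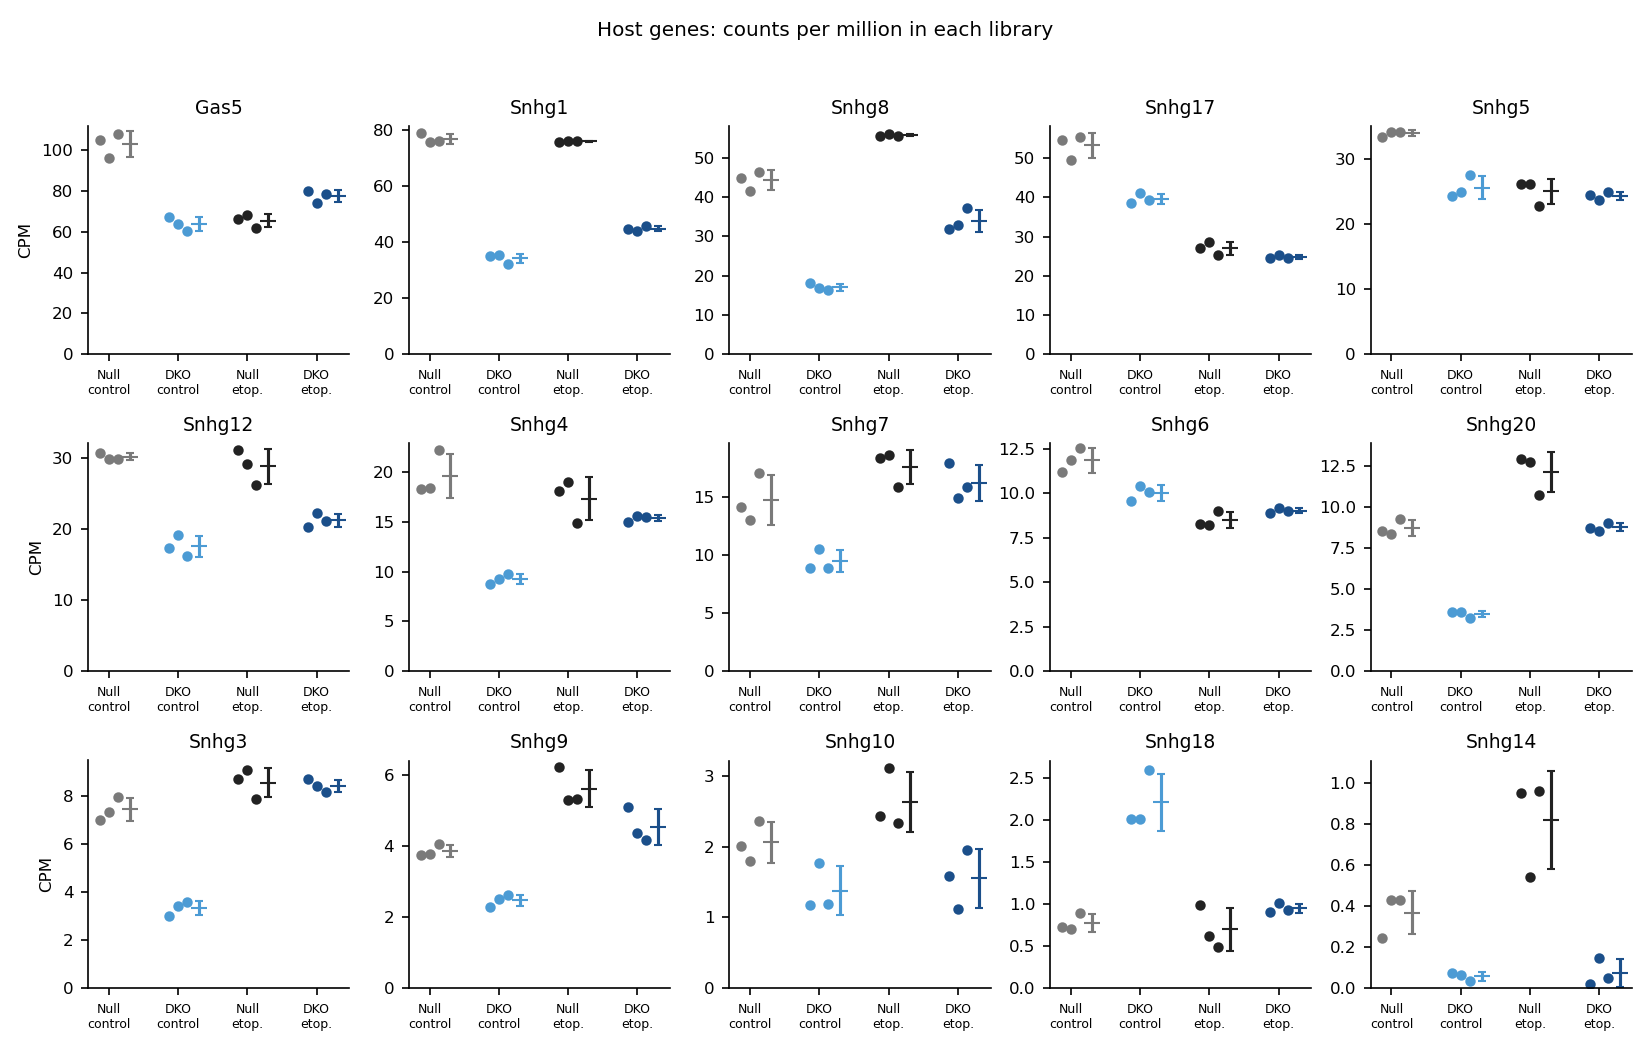
CPM of each of the 15 tested host genes in each library (points) by group, with the mean and SD beside them; every vertical axis starts at 0. In 14 panels the DKO control points lie below the Null control points, and Snhg18 is the exception.

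Among the snoRNAs, the C/D members with the most negative untreated differences at a mean of at least 1 CPM were Snord22, Snord83b and Snord43. Snord22 was at 46.5, 59.6 and 66.3 CPM in Null control and 18.8, 19.5 and 15.9 CPM in DKO control. Every DKO library was far below every Null library, with a log2 difference of -1.66 ± 0.12 (edgeR, BH adjusted p = 7.09e-10). Snord83b and Snord43 both lie in introns of Rpl3, the gene of a large-subunit ribosomal protein. GENCODE lists the gene matched to Snord43, of 108 bases, as a miRNA. Snord83b gave 6.64, 6.36 and 8.88 CPM in Null and 3.16, 2.93 and 2.13 CPM in DKO control, without overlap (log2 -1.39 ± 0.16; edgeR, BH adjusted p = 5.93e-07). Snord43 gave 3.10, 2.60 and 2.97 CPM and 1.10, 1.17 and 1.12 CPM, also without overlap (log2 -1.35 ± 0.18; edgeR, BH adjusted p = 4.34e-06). Snora74a, the most abundant member by CPM, was at 212, 240.2 and 205 CPM in Null and 109, 109.9 and 83.4 CPM in DKO control. The groups were apart, with a log2 difference of -1.12 ± 0.12 (edgeR, BH adjusted p = 2.19e-07). The snoRNAs of Snhg12, picked for their shared host, had differences of -1.25 for Snora44, -1.09 for Snora61, -0.96 for Snord99 and -0.90 for Snora16a, and all were called lower. Of the tested snoRNAs that overlap an annotated host exon 28 of 43 were lower (median -0.66), and of those in no such exon 19 of 44 (median -0.58); the difference between these shares was not tested.

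**Figure D3:**
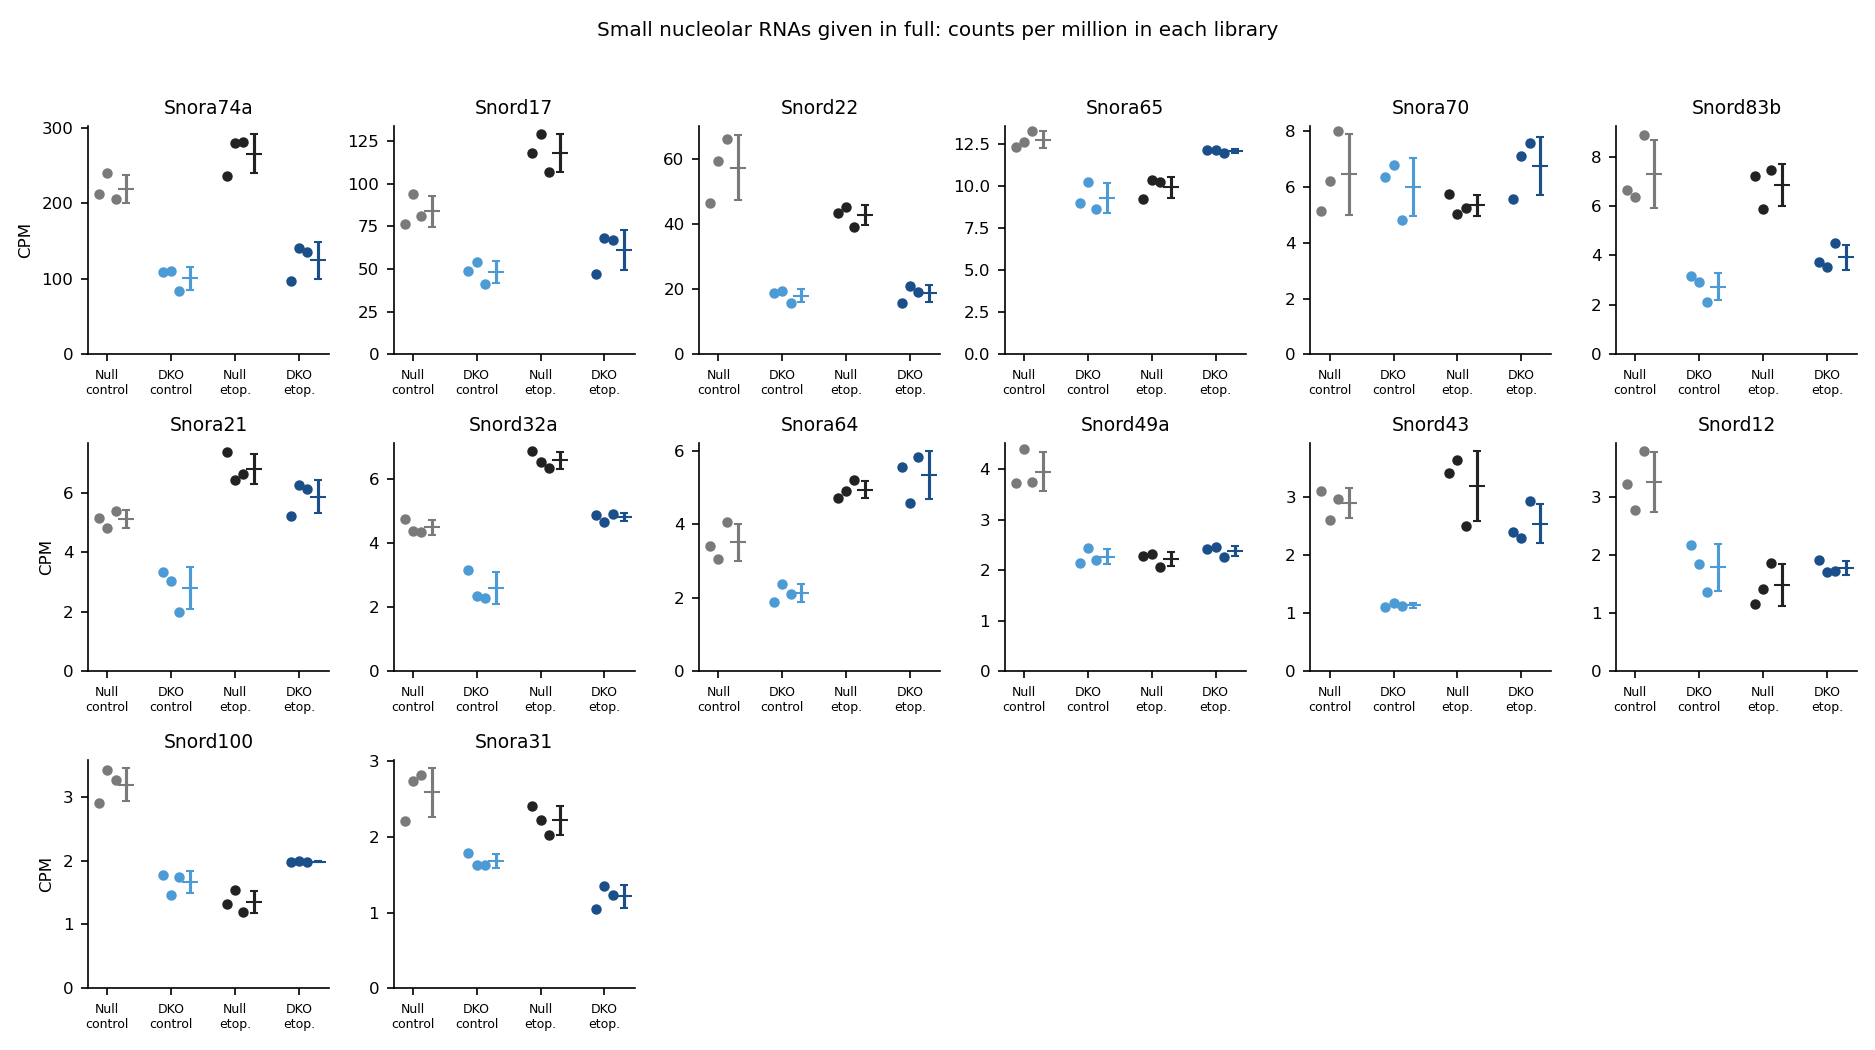
CPM of 14 snoRNAs in each library (points) by group, with the mean and SD beside them; every vertical axis starts at 0. DKO control points lie below Null control points in each panel but that of Snora70, in which all 4 groups span 4.83 to 8.02 CPM.

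The second comparison asked what etoposide changed in Null MEFs. Gas5, Snhg5, Snhg6 and Snhg17 fell, Snhg3, Snhg7, Snhg8, Snhg9, Snhg14 and Snhg20 rose, and called falls outnumbered called rises among C/D snoRNAs. Of the 106 tested members 17 were higher (42.3% of all genes tested) and 32 were lower (37.2% of all genes), with a median of -0.17 beside 0.07 over all genes. This split depended on scaling and filter: with library size alone 24 were higher and 24 lower, and at a mean of at least 1 CPM 16 were higher and 16 lower. Hosts split 6 higher and 4 lower, H/ACA snoRNAs 5 and 6, and C/D snoRNAs 6 and 22 (of 60). The share of C/D snoRNAs called lower was near that over all genes, and the share called higher was below it. Only 3 H/ACA snoRNAs were higher without Null control replicate 1.

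Gas5 in Null etoposide libraries was at 66.2, 68.2 and 62.0 CPM, below all Null control libraries, and fell by 0.65 on the log2 scale (edgeR, BH adjusted p = 2.26e-09). Snhg17 was at 27.2, 28.6 and 25.2 CPM with drug, also below every control library (log2 -0.98 ± 0.05; edgeR, BH adjusted p = 1.25e-11). Snhg1 was at 75.9, 76.2 and 76.1 CPM, within the range of its controls, and its difference of -0.02 ± 0.04 did not pass (edgeR, BH adjusted p = 0.668). Snhg1 therefore gave no called change, and its sign turned under other scalings. Snhg8 rose to 55.7, 56.0 and 55.6 CPM, above each control library (log2 0.33 ± 0.06; edgeR, BH adjusted p = 3.59e-05). Snhg20 rose to 12.9, 12.7 and 10.7 CPM, again without overlap (log2 0.49 ± 0.08; edgeR, BH adjusted p = 2.89e-05).

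The snoRNAs with the largest rises at a mean of at least 1 CPM were Snord32a, Snora64 and Snord17. Snord32a, in Rpl13a, went from 4.77, 4.36 and 4.34 CPM to 6.87, 6.53 and 6.36 CPM (log2 0.55 ± 0.10; edgeR, BH adjusted p = 0.000105). Snora64, in the ribosomal protein gene Rps2, went from 3.42, 3.04 and 4.05 CPM to 4.71, 4.92 and 5.19 CPM (log2 0.49 ± 0.13; edgeR, BH adjusted p = 0.00173). Snord17, the longest C/D member, went from 76.2, 94.0 and 81.1 CPM to 118, 129 and 107 CPM (log2 0.49 ± 0.12; edgeR, BH adjusted p = 0.000819). For each of these the treated libraries lay above all controls. The largest falls were those of Snord100, Snord12 and Snord49a. Snord100 went from 2.90, 3.41 and 3.26 CPM to 1.32, 1.54 and 1.20 CPM (log2 -1.22 ± 0.14; edgeR, BH adjusted p = 4.93e-07). Snord12 went from 3.22, 2.77 and 3.78 CPM to 1.16, 1.42 and 1.87 CPM (log2 -1.15 ± 0.18; edgeR, BH adjusted p = 1.93e-05). Snord49a went from 3.72, 4.4 and 3.75 CPM to 2.28, 2.32 and 2.06 CPM (log2 -0.82 ± 0.12; edgeR, BH adjusted p = 6.88e-06). None of these 3 overlapped between treatments. Most C/D falls were in weakly counted members: of the 22, 14 had a mean under 1 CPM (14 of 35 tested, median -0.63) and 8 a mean of at least 1 CPM (8 of 25, median -0.13).

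The third comparison applied etoposide to DKO MEFs, where called rises outnumbered called falls. Gas5, Snhg1, Snhg3, Snhg4, Snhg7, Snhg8, Snhg9, Snhg12 and Snhg20 rose, and Snhg17 and Snhg18 fell, the latter by more (-1.19) at a mean of 1.16 CPM. Of the 106 tested members 32 were higher (43.7% of all genes tested) and 6 were lower (31.5% of all genes), with a median of 0.27 beside 0.14 over all genes. The share of members called higher was thus below that over all genes. Hosts split 9 higher and 2 lower, H/ACA snoRNAs 14 and 1, and C/D snoRNAs 9 and 3. The higher count fell to 21 without DKO control replicate 3 and to 20 without DKO etoposide replicate 3, where H/ACA snoRNAs numbered 7 each time and C/D snoRNAs 5 and 4; 8 H/ACA snoRNAs were higher without DKO etoposide replicate 2. The C/D snoRNAs called lower numbered 5 without DKO etoposide replicate 1. All 3 called lower in the main fit had a mean under 1 CPM. At a mean of at least 1 CPM, 3 members were lower. With library size alone 54 members were higher and 4 lower, on a scale that moves the median of all genes from 0.14 to 0.41.

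Gas5 was at 80.0, 74.0 and 78.4 CPM in DKO etoposide, above every DKO control library (log2 0.28 ± 0.05; edgeR, BH adjusted p = 0.00014). Snhg1 rose to 44.7, 44.2 and 45.8 CPM, without overlap (log2 0.39 ± 0.04; edgeR, BH adjusted p = 1.63e-07). Snhg8 rose to 31.9, 32.8 and 37.2 CPM, also above all controls (log2 0.99 ± 0.06; edgeR, BH adjusted p = 1.23e-10). These 3 hosts thus rose in every treated DKO library. Snhg3, host of an H/ACA snoRNA pair, went from 2.99, 3.42 and 3.59 CPM to 8.68, 8.41 and 8.17 CPM (log2 1.33 ± 0.10; edgeR, BH adjusted p = 1.1e-09). Snhg20 went to 8.72, 8.51 and 9.01 CPM (log2 1.32 ± 0.10; edgeR, BH adjusted p = 1.29e-09), and neither gene's groups overlapped. Snhg17 fell to 24.5, 25.4 and 24.5 CPM, below all controls (log2 -0.68 ± 0.06; edgeR, BH adjusted p = 4.53e-09).

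Of the snoRNAs, Snora64 rose most at a mean of at least 1 CPM, from 1.90, 2.37 and 2.11 CPM to 5.56, 4.59 and 5.84 CPM (log2 1.31 ± 0.14; edgeR, BH adjusted p = 1.44e-07). Snord43 went from 1.10, 1.17 and 1.12 CPM to 2.39, 2.29 and 2.92 CPM (log2 1.18 ± 0.19; edgeR, BH adjusted p = 2.23e-05). Snora21, in Rpl23, went from 3.34, 3.04 and 2.00 CPM to 5.22, 6.25 and 6.14 CPM (log2 1.07 ± 0.14; edgeR, BH adjusted p = 2.17e-06). In each case all treated libraries exceeded all controls. Snora31, in the translationally controlled gene Tpt1, went from 1.79, 1.63 and 1.63 CPM to 1.05, 1.35 and 1.23 CPM (log2 -0.45 ± 0.17; edgeR, BH adjusted p = 0.0274). Its groups did not overlap, but the call was lost without DKO control replicate 1 (-0.43), DKO etoposide replicate 1 (-0.41) or DKO etoposide replicate 3 (-0.46), and with library size alone (-0.18).

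The fourth comparison set DKO against Null MEFs after etoposide. DKO cells then held less Snhg1, Snhg8, Snord22, Snora74a and Snord17 than Null cells, and more Gas5 and Snord100. Of the 106 tested members 4 were higher (37.5% of all genes tested) and 33 were lower (36.6% of all genes), with a median of -0.26 beside 0.00 over all genes. Hosts split 1 higher and 7 lower, H/ACA snoRNAs 2 and 10, and C/D snoRNAs 1 and 16. Without Null etoposide replicate 1, 2 hosts were higher, and without DKO etoposide replicate 2, 2 C/D snoRNAs were. The share called lower was near that over all genes.

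Gas5 libraries of the treated groups were apart, with DKO above Null (log2 0.24 ± 0.05; edgeR, BH adjusted p = 0.000427), the opposite order to that without drug. Snhg1 and Snhg8 were lower in DKO, again without overlap, with log2 differences of -0.76 ± 0.04 and -0.71 ± 0.06 (edgeR, BH adjusted p = 9.51e-12 and 3.73e-09). Snhg17 gave -0.12 ± 0.06 with overlapping groups (edgeR, BH adjusted p = 0.0555). It was called lower without DKO control replicate 1 or 2 (both -0.14), Null etoposide replicate 3 (-0.16) or DKO etoposide replicate 2 (-0.16), and under 5 other settings, from -0.14 to -0.19.

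Snord22 was at 43.6, 45.4 and 39.3 CPM in Null etoposide and 15.9, 21.1 and 19.3 CPM in DKO etoposide (log2 -1.18 ± 0.12; edgeR, BH adjusted p = 5.2e-08). Snora74a was at 236, 280.3 and 281 CPM and 96.6, 140.4 and 136 CPM (log2 -1.09 ± 0.12; edgeR, BH adjusted p = 2.29e-07). Snord17 in DKO etoposide was at 47.3, 68.1 and 67.2 CPM (log2 -0.94 ± 0.12; edgeR, BH adjusted p = 1.05e-06). For all 3, Null libraries lay above DKO libraries, and DKO etoposide replicate 1 was the lowest. Snord100 was higher in DKO, at 1.98, 1.99 and 1.98 CPM, than in any Null etoposide library (log2 0.55 ± 0.16; edgeR, BH adjusted p = 0.00468). Snora65, in Rpl12, was at 9.19, 10.3 and 10.2 CPM in Null and 12.1, 12.1 and 12 CPM in DKO, without overlap (log2 0.28 ± 0.07; edgeR, BH adjusted p = 0.00232). Snora70, in Rpl10, was at 5.75, 5.04 and 5.25 CPM and 5.56, 7.13 and 7.58 CPM, groups that overlapped (log2 0.37 ± 0.15; edgeR, BH adjusted p = 0.0386). The Snora70 call was lost without DKO control replicate 1 (0.34) or 2 (0.34), Null etoposide replicate 2 (0.32) or 3 (0.36), DKO etoposide replicate 2 (0.32) or 3 (0.26), and under 6 other settings (0.28 to 0.35).

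The interaction term asked whether the response to etoposide differed between the lines, with positive values for a more positive response in DKO. It was positive for Gas5, Snhg1, Snhg3, Snhg8, Snhg17 and Snhg20, and for Snord100, Snord12 and Snord43. Of the 106 tested members 35 had a positive interaction (29.6% of all genes tested) and 2 a negative one (24.4% of all genes), with a median of 0.37 beside 0.05 over all genes. Positive calls comprised 11 of 15 hosts, 10 of 31 H/ACA and 14 of 60 C/D snoRNAs. H/ACA positives numbered 6 without DKO etoposide replicate 3, and C/D positives 8 without Null control replicate 3 and 9 without DKO control replicate 3. The 2 negative interactions were those of Snhg18 (-1.07 ± 0.34) and Snord14a (-1.43 ± 0.47), named after their values were seen; 1 was left without DKO control replicate 2 or Null etoposide replicate 1, and 4 were called without Null etoposide replicate 3.

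Gas5 gave an interaction of 0.93 ± 0.07 (edgeR, BH adjusted p = 9.09e-09), having fallen in all 3 treated Null libraries and risen in all 3 treated DKO libraries. Snhg3 gave 1.12 ± 0.13 (edgeR, BH adjusted p = 9.86e-07). In Null MEFs Snhg3 was at 7.0, 7.35 and 7.97 CPM without drug and 8.70, 9.07 and 7.88 CPM with it, overlapping groups although it was called higher (0.21), whereas its DKO groups were apart. Snhg8 gave 0.66 ± 0.08 (edgeR, BH adjusted p = 2.87e-06), Snhg1 0.40 ± 0.06 (adjusted p = 8.7e-06) and Snhg17 0.30 ± 0.08 (adjusted p = 0.00283). Snord100 gave 1.5 ± 0.21 (edgeR, BH adjusted p = 1.07e-05), with a fall in Null and 0.27 in DKO MEFs, where it was not called. Snord12 gave 1.12 ± 0.27 (edgeR, BH adjusted p = 0.00219), and its DKO libraries, at 2.17, 1.84 and 1.36 CPM without drug and 1.92, 1.71 and 1.72 CPM with it, overlapped. Snord43 gave 1.04 ± 0.24 (edgeR, BH adjusted p = 0.0014), with 3.4, 3.63 and 2.49 CPM in Null etoposide overlapping its control. The interaction and the comparisons within each line share the same libraries, so they are not independent results.

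**Figure D4:**
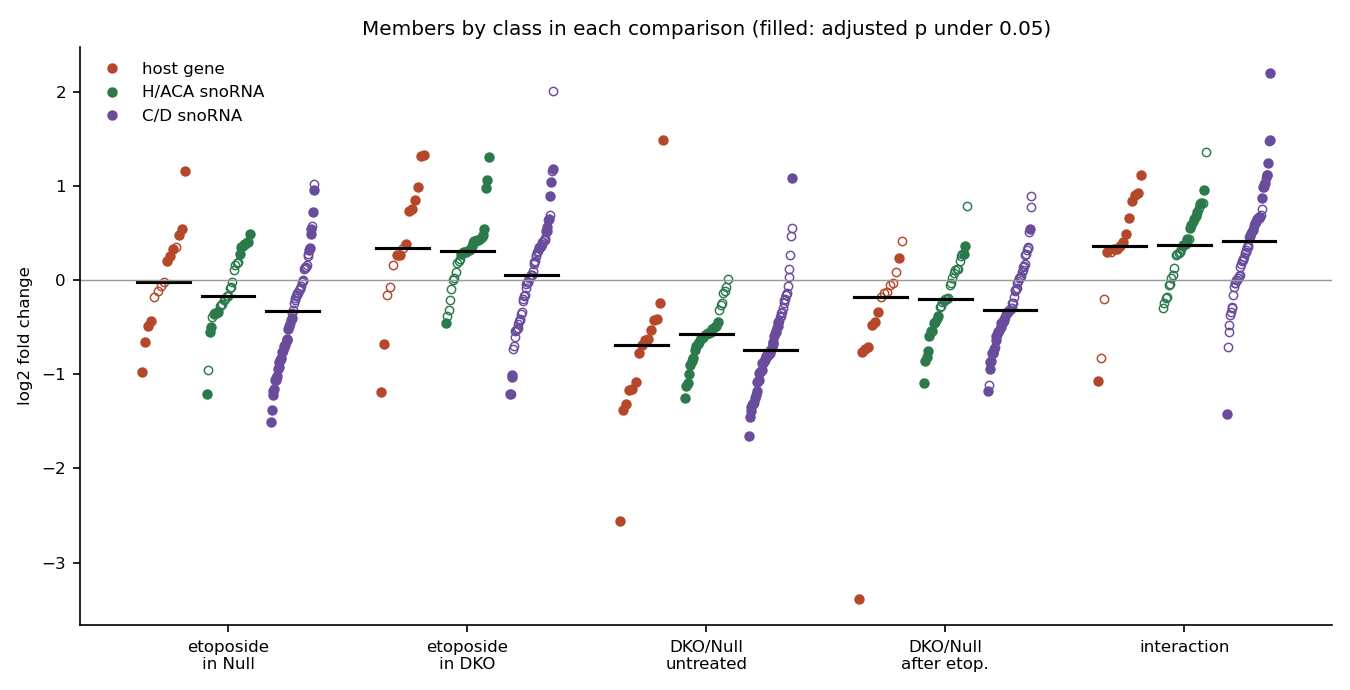
Log2 fold change of each tested member by class in the 5 comparisons (filled points, adjusted p under 0.05; open points, not called; bars, class medians). Medians without drug are -0.69, -0.57 and -0.74 for hosts, H/ACA and C/D snoRNAs; for etoposide in Null MEFs those of hosts (-0.02) and H/ACA snoRNAs (-0.16) turn to 0.15 and 0.005 with library size alone, where the median of all genes is 0.23, and that of hosts to 0.03 with DESeq2 size factors and to 0.05 at a mean of at least 1 CPM or without Null etoposide replicate 3.

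snoRNAs were then set beside the genes that carry them, for the 89 snoRNAs whose host was also tested (65 hosts). The hosts' median log2 difference between untreated DKO and Null MEFs was -0.25 and that of the snoRNAs -0.61. Across these pairs the untreated differences had a Pearson r of 0.548 and a Spearman rho of 0.517. Pairs share libraries and several share a host, so pairs are not independent and r is a description only. Ambiguous counts were set aside, so reads at overlapping exons may be missing from both genes. In 41 pairs both genes were called in the same direction, in 10 the snoRNA alone was called and in 25 the host alone. Most of these hosts (43 of 65) were called lower, so many joint calls would arise without any link within pairs. Whether 41 exceeds that number was not tested. For the 11 pairs whose host is a member r was 0.887 (rho 0.895); in 3 of them (Snora17 and Snora43 in Snhg7, Snora74a in Snhg4) the host was placed without a strand match. Across the same 89 pairs r was 0.391 for etoposide in Null MEFs, 0.178 for etoposide in DKO MEFs, 0.10 for DKO against Null after etoposide and -0.016 for the interaction. In the same order, r for the 11 pairs with a member host was 0.636, 0.395, 0.675 and, for the interaction, -0.478.

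The pairs described next were picked after their values were seen. For Gas5 and Snord47 the untreated differences were -0.69 and -0.48, and those with etoposide in Null MEFs -0.65 and -0.52, each called lower. In DKO MEFs Gas5 rose with drug (0.28). Snord47 there was at 2.98, 2.55 and 2.18 CPM without drug and 1.96, 2.59 and 2.83 CPM with it, overlapping groups. After etoposide Gas5 was higher in DKO than in Null (0.24). Snord47 in Null etoposide, at 2.40, 2.17 and 3.02 CPM, overlapped DKO etoposide. For Snhg4 and Snora74a, paired by position without strand, the untreated differences were -1.08 and -1.12, both called. After etoposide Snora74a was still lower in DKO (-1.09), whereas Snhg4, at 18.1, 18.9 and 14.9 CPM in Null and 15.0, 15.6 and 15.5 CPM in DKO, gave -0.17 with overlapping groups and was not called. Rps12, which encodes a small-subunit ribosomal protein, rose in Null MEFs with drug (0.32) while Snord100 fell (-1.22), both called. Rpl12 rose (0.47) while Snora65 fell (-0.36), again both called. Zfas1 (1500012F01Rik) stayed lower in DKO after etoposide, at -0.89 and at 43.0, 43.4 and 43.3 CPM in Null against 21.9, 24.0 and 23.9 CPM in DKO, groups well apart. Its snoRNA Snord12 gave 0.27 in that comparison and was not called.

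**Figure D5:**
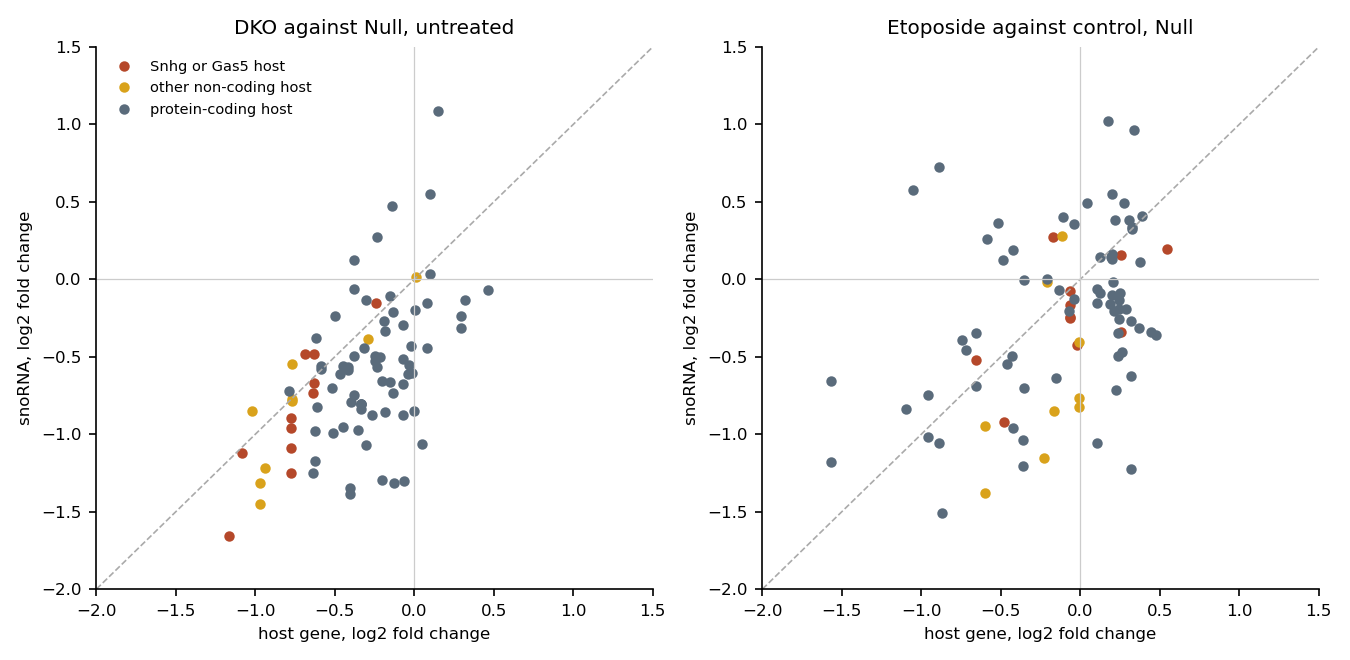
Log2 fold change of each of 89 snoRNAs (vertical) against that of its host (horizontal), for DKO against Null without drug (left) and etoposide against control in Null MEFs (right); the dashed line marks equal values and colours give the kind of host. On the left most points lie below zero on both axes (r = 0.548), and on the right they scatter more widely (r = 0.391).

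Among the 65 tested hosts outside the rule, many of them genes of ribosomal proteins and translation factors, 40 were lower and 6 higher in untreated DKO MEFs, with a median of -0.25. Zfas1 (-1.02) and 1810032O08Rik (-0.97) differed most among those lower, and Rpl10 (0.47) was higher. With etoposide 26 were higher and 28 lower in Null MEFs, where Rpl12 (0.47) and Eef1b2 (0.44), an elongation factor subunit, rose and Wdr43 (-1.57), a factor of small-subunit processing, fell. In DKO MEFs 27 were higher and 16 lower with drug, led by the chaperone gene Hspa8 (0.96) and Dancr (0.82) on the higher side and Wdr43 (-0.76) and 2410002F23Rik (-0.74) on the lower. After etoposide 21 were higher and 27 lower in DKO, and the interaction was positive for 30 and negative for 6. Over all genes tested 33.4% were lower and 33.3% higher in untreated DKO, 42.3% higher and 37.2% lower with etoposide in Null, 43.7% higher and 31.5% lower with it in DKO, and 37.5% higher and 36.6% lower in DKO after it; the interaction was positive for 29.6% and negative for 24.4%. The counts of these hosts were near those shares for etoposide in each line and for DKO against Null after it.

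The proteins that build and house snoRNAs were counted in lists, to be read against the same shares over all genes tested. Those shares were 33.4% lower and 33.3% higher in untreated DKO, and 37.2% lower and 42.3% higher with etoposide in Null. They were 31.5% lower and 43.7% higher with etoposide in DKO, and 36.6% lower and 37.5% higher in DKO after it. For the interaction they were 29.6% positive and 24.4% negative. The 8 core proteins of C/D and H/ACA particles (Fbl, Nop56, Nop58, Nhp2l1, Dkc1, Nop10, Nhp2 and Gar1) all passed the filter, and 6 were lower in untreated DKO than in Null MEFs (median -0.36). Gar1 (-0.69) and Fbl (-0.64), the methyltransferase of C/D particles, were lowest. With etoposide 6 were lower and 2 higher in Null (median -0.33), and 1 lower and 5 higher in DKO (median 0.25). Nop58, a scaffold of C/D particles, was at 260.0, 254 and 252 CPM in Null control and 136, 146 and 132 CPM in Null etoposide, a fall without overlap (log2 -0.89 ± 0.04; edgeR, BH adjusted p = 3.36e-13). In DKO MEFs Nop58 gave -0.18, which turned to 0.09 with library size alone. Dkc1, the pseudouridine synthase of H/ACA particles, was at 135, 135 and 129.6 CPM in Null control and 91.6, 98.6 and 91.7 CPM with drug. In DKO it was at 127, 129 and 126 CPM without drug and 173, 178 and 179.8 CPM with it, so the lines moved in opposite directions without overlap. Its interaction was 0.98 ± 0.05 (edgeR, BH adjusted p = 3.81e-11), and the interaction was positive for 7 of the 8. After etoposide 3 were higher and 1 lower in DKO than in Null.

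Of 16 assembly, transport and U3 factors, 10 were lower and 1 higher in untreated DKO MEFs (median -0.34), with Naf1 (-0.87) and Znhit6 (-0.84) lowest and Pih1d1 (0.56) higher. With etoposide 11 were lower and 2 higher in Null (median -0.38), and 2 lower and 10 higher in DKO (median 0.18); the 2 lower, Nufip1 and Znhit6, were not called with library size alone. After etoposide 8 were higher and 2 lower in DKO than in Null, and 12 had a positive interaction, led by Tcof1 (1.01), the treacle gene of the nucleolus, and Coil (0.87), the Cajal body scaffold. Of 13 nucleolar and RNA polymerase I genes, 12 were lower in untreated DKO MEFs (median -0.40), among them the polymerase subunit Polr1a (-0.75) and Bop1 (-0.66). With etoposide 11 were lower and 2 higher in Null (median -0.39), and 2 lower and 9 higher in DKO (median 0.18). Of the 2 lower, Bop1 turned to 0.12 with library size alone, under which Ubtf was not called. Polr1b, the second-largest polymerase I subunit, was at 117, 115 and 126 CPM in Null control and 58.4, 58.0 and 55.6 CPM in Null etoposide, and at 78.6, 83.6 and 80.3 CPM in DKO control and 86.9, 90.3 and 88.7 CPM in DKO etoposide. It was lower with drug in Null and higher with drug in DKO, without overlap in either line (interaction 1.19 ± 0.06; edgeR, BH adjusted p = 2.15e-11). The interaction was positive for 11 of the 13, and after etoposide 9 were higher and 1 lower in DKO. Over all genes 33.4% were lower and 33.3% higher in untreated DKO, and 37.2% lower and 42.3% higher with drug in Null. With drug in DKO 31.5% were lower and 43.7% higher, and after etoposide 36.6% were lower and 37.5% higher in DKO. The interaction was positive for 29.6% of all genes and negative for 24.4%.

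Of 10 nonsense-mediated decay factors, 4 were lower and 2 higher in untreated DKO MEFs (median -0.09). Smg5 (-0.56) and the helicase Upf1 (-0.50) were lowest, and the kinase Smg1 (0.31) was higher. With etoposide 6 were lower and 3 higher in Null (median -0.28), and 4 lower and 3 higher in DKO. Over all genes 33.4% were lower and 33.3% higher in untreated DKO, 37.2% lower and 42.3% higher with drug in Null, and 31.5% lower and 43.7% higher with it in DKO. Smg1 fell from 322, 318 and 335 CPM to 147, 140.4 and 129.5 CPM in Null and from 393, 399.9 and 418 CPM to 236, 239 and 245 CPM in DKO. It fell in both lines without overlap, with an interaction of 0.47 ± 0.06 (edgeR, BH adjusted p = 2.63e-06). After etoposide 3 were higher and 5 lower in DKO, and the interaction was positive for 6 and negative for 2, Upf3b (-0.58) and Smg6 (-0.41); over all genes the shares were 37.5% higher and 36.6% lower, and 29.6% positive and 24.4% negative.

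Levels of the host genes were compared per kilobase of annotated exon for the 13 tested hosts with a GENCODE length. In Null control the highest were Snhg8 at 51.9, Gas5 at 27.4 and Snhg1 at 25.9 CPM per kb, and the lowest was Snhg14 at 0.0142 CPM per kb. In DKO control the highest were Snhg8 at 20.0, Gas5 at 17.0 and Snhg5 at 14.8 CPM per kb, followed by Snhg9 at 13.6 and Snhg1 at 11.6 CPM per kb. Exon lengths take in every annotated transcript, so these levels understate genes with long rare exons.

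Promoter sequence from RefSeq (GRCm38.p6, 250 bases before to 50 after each start) was available for 14 of the 16 hosts, all but Snhg4 and Snhg6. The E box CACGTG, which TFEB and TFE3 can bind, was present on either strand in 1 of 14 (7.1%), beside 9.2% of 17224 table genes. The extended form TCACGTGA, which contains that E box, was in 0 of 14 and in 1.5% of table genes. A C at the start followed by 4 pyrimidines, the terminal oligopyrimidine (TOP) pattern of many translation-related genes, was present in 3 of 14 (21.4%), beside 2.8% of table genes. Gas5 was counted through its downstream start, as its upstream start did not hold the pattern. A match is a description of letters and not a binding site. The promoters of Gas5 (downstream start, chr1:161034916-161035215, plus strand) and Snhg8 (chr3:123508287-123508586, minus strand) are shown because both hosts were among the most highly counted members lower in untreated DKO MEFs and hold the TOP pattern, in capitals. That of Snhg9 (chr17:24719916-24720215, minus strand) is shown for its E box, in capitals, at position -170 from the start; Snhg9 was at 3.75, 3.80 and 4.06 CPM in Null control and 2.30, 2.52 and 2.62 CPM in DKO control, without overlap.
Gas5: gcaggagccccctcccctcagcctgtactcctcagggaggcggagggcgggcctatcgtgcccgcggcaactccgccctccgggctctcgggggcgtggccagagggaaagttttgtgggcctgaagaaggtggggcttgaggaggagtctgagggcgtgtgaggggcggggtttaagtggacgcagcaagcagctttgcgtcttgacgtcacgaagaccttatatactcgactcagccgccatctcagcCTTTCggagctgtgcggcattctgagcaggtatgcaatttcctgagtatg
Snhg8: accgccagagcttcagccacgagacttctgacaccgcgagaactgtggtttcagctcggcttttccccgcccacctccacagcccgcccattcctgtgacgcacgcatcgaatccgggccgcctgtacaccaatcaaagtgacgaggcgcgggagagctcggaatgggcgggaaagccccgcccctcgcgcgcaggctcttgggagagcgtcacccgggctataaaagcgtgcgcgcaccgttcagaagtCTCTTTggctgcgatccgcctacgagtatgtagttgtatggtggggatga
Snhg9: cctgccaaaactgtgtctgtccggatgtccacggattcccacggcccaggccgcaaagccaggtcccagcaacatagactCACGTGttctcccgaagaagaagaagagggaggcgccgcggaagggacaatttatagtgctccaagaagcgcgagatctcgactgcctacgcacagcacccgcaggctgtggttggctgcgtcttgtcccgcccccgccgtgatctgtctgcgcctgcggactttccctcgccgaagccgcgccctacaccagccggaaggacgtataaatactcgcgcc

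The 20 members that did not pass the filter were Snhg11, Snora19, Snora24, Snora26, Snora35, Snora36b and 14 C/D snoRNAs. Of these, 13 were listed at 0 in every library; 11 of the 13 have a host that is in the table and 6 overlap one of its exons. Snord118, which has its own promoter, was listed at 0 in all 12 libraries. Snord3a and Snord13, which also have their own promoters, were not among the rows analysed here.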

How the data were processed

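Total RNA depleted of ribosomal RNA was sequenced from 12 MEF libraries, 3 in each of 4 groups. Gene counts were deposited by the authors as whole numbers with no normalization: reads were trimmed, aligned to mm10 with HISAT2 and counted on GENCODE genes, with HTSeq in the study's methods and featureCounts in the submitters' processing notes; tool versions and the strand setting are not given in the sources used here. Rows that name no gene stayed out of library sizes and tests: of all counts per library 20.2 to 27.3% fell in no listed gene, 15.9 to 20.5% were alignments that were not unique and 0.428 to 0.513% were ambiguous. How well short RNAs were recovered was not measured, so counts of snoRNAs need not follow mature snoRNA levels.

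Counts for 24421 rows (2 symbols occur more than once) were filtered by expression in the 4 groups, scaled by TMM and tested with the quasi-likelihood fit of edgeR 4.0.16 in R 4.3.3 on all 12 libraries, with 15220 genes tested, Benjamini-Hochberg adjustment over all of them and a threshold of 0.05. The interaction tested the difference between the lines in the etoposide response. The current quasi-likelihood fit was chosen after seeing the data; the earlier fit, tried first, is kept as an alternative. The other alternatives were no filter, a mean of at least 1 CPM, DESeq2 1.42.0 size factors, library size alone, the Wald test of DESeq2, limma-trend with robust moderation (limma 3.58.1), a replicate block, leaving out each library, and fitting only the groups compared.

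Members and lists were chosen with earlier results of these data known. Named were Gas5, the 4 most counted hosts, and in each comparison the 2 hosts (mean of at least 5 CPM), 3 snoRNAs (at least 1 CPM) and 2 genes of each list with the largest called rise and fall, of which some are not reported here; Snord47, the snoRNAs of Snhg12 and the pairs described were chosen after their values were seen. snoRNAs were placed in hosts by GENCODE M21 coordinates on the same strand, except Snora17, Snora43, Snora74a and Snord64, placed by RefSeq gene spans that give no strand; promoters came from RefSeq. snoRNA boxes were matched by exact letters.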

Additional observations from a re-analysis of the deposited data

Results flagged for a closer look

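The response to etoposide differed between the lines by the interaction term of the edgeR fit (Benjamini-Hochberg adjusted over all genes tested): 35 of the 106 tested members had a more positive response in DKO than in Null MEFs, where 29.6% of all genes tested did, and 2 a more negative one, where 24.4% did. The positive share is thus near that over all genes. In log2 units the interaction among the hosts described was 0.93 for Gas5, 0.4 for Snhg1, 0.66 for Snhg8, 0.3 for Snhg17, 0.84 for Snhg20 and 1.12 for Snhg3. Among C/D snoRNAs it was 1.5 for Snord100, 1.12 for Snord12, 0.88 for Snord49a, 1.04 for Snord43, 0.48 for Snord22 and 0.61 for Snord83b. Among H/ACA snoRNAs it was 0.82 for Snora64, 0.65 for Snora21 and 0.73 for Snora65. Groups of 3 libraries were not tested for outlying samples.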

How the results depend on the processing

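Of 2979 values for 143 results on 72 named genes, 2928 kept their direction and their side of the threshold, 35 lost the call, 9 gained it and 7 turned sign. Snhg1 with etoposide in Null MEFs (-0.018, not called) turned to 0.069 at a mean of at least 1 CPM, 0.027 with DESeq2 size factors and with the Wald test, and 0.149 with library size alone; Nop58 and Bop1 with etoposide in DKO MEFs turned to 0.093 and 0.122 with library size alone. Tfe3 in DKO against Null after etoposide was between -0.055 and 0.033 with each library left out. Library size alone shifts the median of all genes to 0.23 and 0.41 for etoposide in Null and DKO MEFs, and 54 members were then higher in DKO. A mean of at least 1 CPM, which leaves fewer genes to test, left 16 members lower with etoposide in Null, 3 lower with etoposide in DKO and 1 higher in untreated DKO. With each library left out, members higher and lower numbered 12 to 17 and 26 to 34 for etoposide in Null, 20 to 31 and 5 to 7 in DKO, 1 to 2 and 58 to 66 for untreated DKO against Null, 3 to 5 and 29 to 36 after etoposide, and 28 to 37 and 1 to 4 for the interaction. The cause of these shifts was not tested.

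With the replicate number as a block, members higher and lower were 16 and 31, 30 and 6, 2 and 64, 3 and 34, and 34 and 3 in the same order. The labels share only the number: the correlations of the 18 same-number pairs ran from -0.032 to 0.043, and those of different-number pairs from -0.047 to 0.048. For 7 of 12 libraries the best match had their own number. Whether that exceeds chance was not tested. Members with a mean under 1 CPM have few counts, and the effect of depth on their calls was not tested.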
